A study of Mus musculus with 18 samples.

Results

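The VEGF receptors Kdr and Flt1, the neuropilins Nrp1 and Nrp2 and the ligands Vegfa and Vegfc were followed through endothelial cells (ECs), which form the inner lining of vessels, in 3 breast tissues treated with PBS or with a STING agonist. The 6 genes were chosen by name as the main receptors, co-receptors and ligands of this pathway, and they made up 6 of the 16248 genes in the deposited table of bulk RNA sequencing. All 6 passed the filter on low values and were tested. The series asked how ECs of normal mammary tissue and of 2 tumour models respond to cGAMP, a cyclic dinucleotide that activates STING, a sensor of cytosolic DNA signals. ECs were sorted as live, CD45-negative and CD31-positive cells 3 hours after the injection. Normal ECs were taken from fat pads of the mammary gland in female wild type FVB mice given PBS (3 libraries) or cGAMP (3 libraries). MMTV-PyMT ECs came from spontaneous breast tumours of MMTV-PyMT mice on the FVB background, given PBS (3 libraries) or cGAMP (3 libraries). In these mice a mammary tumour virus promoter drives the polyoma middle T oncogene in the mammary epithelium. Implanted ECs came from breast tumours in wild type FVB mice, given PBS (3 libraries) or cGAMP (3 libraries). Those tumours were grown from cells of MMTV-PyMT tumours that were expanded in culture and placed in the fat pad. The methods of the study name female mice for both tumour models as well. The sample labels give no ages. The methods give an age for MMTV-PyMT mice at the start of treatment and for the hosts of implanted tumours at implantation. A legend of the study gives 3 mice per group from 3 independent experiments, but not which library came from which experiment, so p-values measure the spread between these libraries. The transgene of the host, the culture of the tumour cells and the implantation cannot be told apart in comparisons of the tumour models. The same holds for any difference in host age.

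VEGF-A is secreted by tissue cells that lack oxygen and acts on ECs mainly through VEGFR2, the tyrosine kinase encoded by Kdr, which drives survival, migration, division and leakiness of vessels. VEGFR1, encoded by Flt1, binds VEGF-A more tightly but signals weakly, and also exists as a soluble form that traps the ligand. Neuropilins bind VEGF and class 3 semaphorins and act as co-receptors, with Nrp1 best known in arteries and sprouting tips and Nrp2 in veins and lymphatic vessels. Vegfc encodes VEGF-C, the main growth factor of lymphatic vessels, which acts through VEGFR3 (Flt4) and, after processing, through VEGFR2.

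Promoter sequence is shown for both receptors and both ligands, 4 genes in all. The cGAMP changes that passed the test were in Kdr, Flt1 and Vegfc, and no cGAMP change of Vegfa passed. RefSeq (GRCm38.p6) held a window for all 6 genes, and for Vegfa a second one at another start. That second window (chr17:46025164-46025413) lies inside the annotated Vegfa gene, and the Nrp1 window (chr8:128358823-128359072) lies inside annotated Nrp1. The windows of Nrp2 (chr1:62703067-62703316) and, by a few bases, Kdr reach past the annotated start of the gene. The windows printed are the 250 bases before the first listed start, 5′ to 3′ on the strand of the gene. They are chr5:75978456-75978705 (minus strand) for Kdr, chr5:147726012-147726261 (minus strand) for Flt1, chr17:46032378-46032627 (minus strand) for Vegfa and chr8:54077282-54077531 (plus strand) for Vegfc. Capitals mark the GC box word GGGCGG on either strand and, in Vegfa alone of the 4, the core of the interferon-stimulated response element (GAAA, any 2 bases, then GAAA) on either strand.
Kdr: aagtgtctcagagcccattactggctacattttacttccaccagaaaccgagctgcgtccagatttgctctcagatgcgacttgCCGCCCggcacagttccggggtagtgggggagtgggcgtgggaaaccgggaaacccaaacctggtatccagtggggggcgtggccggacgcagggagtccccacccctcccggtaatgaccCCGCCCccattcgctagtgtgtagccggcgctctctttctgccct
Flt1: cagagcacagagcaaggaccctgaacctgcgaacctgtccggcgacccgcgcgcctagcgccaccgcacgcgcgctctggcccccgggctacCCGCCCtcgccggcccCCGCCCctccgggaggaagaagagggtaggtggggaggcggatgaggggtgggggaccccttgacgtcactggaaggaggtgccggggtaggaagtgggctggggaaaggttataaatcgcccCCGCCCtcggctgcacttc
Vegfa: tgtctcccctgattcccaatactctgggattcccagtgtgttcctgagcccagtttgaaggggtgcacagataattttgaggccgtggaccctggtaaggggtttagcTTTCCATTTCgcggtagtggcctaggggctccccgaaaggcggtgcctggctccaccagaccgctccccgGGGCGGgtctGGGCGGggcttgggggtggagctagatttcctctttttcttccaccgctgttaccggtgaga
Vegfc: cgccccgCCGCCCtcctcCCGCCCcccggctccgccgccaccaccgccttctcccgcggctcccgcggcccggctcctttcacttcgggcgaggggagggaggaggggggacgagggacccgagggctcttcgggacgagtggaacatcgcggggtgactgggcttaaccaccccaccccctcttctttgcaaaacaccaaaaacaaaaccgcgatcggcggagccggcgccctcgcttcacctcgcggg
The GC box word, a landing place of the factor Sp1, occurred 2 times in Kdr, 3 times in Flt1, 1 time in Nrp1, 5 times in Nrp2 (2 of them sharing 1 base), 2 times in Vegfa and 2 times in Vegfc. It was present in 32.7% of the 32851 promoter windows of the same length. The interferon core word in Vegfa spanned bases -142 to -133 from the start and was present in 2.98% of all windows. The word ACGTG, 1 form of the hypoxia response element core (16.6% of windows), was found in the second Vegfa window only. Other forms of that core, such as GCGTG, were not counted. The ETS core CCGGAAG (6.91%) and the AP-1 site TGANTCA (6.75%) were found in none of the 7 windows. The 5 words were chosen with the values known, and a match describes the letters only.

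Reads recovered from the FPKM values (fragments per kilobase of exon, scaled for library size) amounted to between 8916799 and 11852755 per library, a 1.33-fold range. Behind single values of the members lay from 4289 to 15215 reads for Flt1, from 4926 to 10657 for Kdr, from 2518 to 6133 for Nrp1, from 2590 to 4992 for Nrp2, from 114 to 679 for Vegfa and from 86 to 640 for Vegfc. The 10 EC markers (Pecam1, Cdh5, Tie1 and others) were all in the table, with a summed level from 875 to 2253 FPKM per library. Markers of other cells were present too. Summed FPKM of the 8 mural cell markers ran from 833 to 1148 in normal ECs and from 180 to 456 in tumour ECs. The 7 epithelial markers summed to between 788 and 1220 in MMTV-PyMT ECs, between 317 and 683 in implanted ECs and between 323 and 488 in normal ECs. The 6 fibroblast markers summed to between 113 and 178, between 236 and 609, and between 48.5 and 90.9 FPKM in the same order, and the 7 of 9 leukocyte markers in the table to between 66.5 and 329. None of the 5 adipocyte markers was in the table. In bulk RNA, fewer cells of a type and less RNA per cell cannot be told apart.

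Kdr and Flt1 were among the most abundant transcripts of these ECs, and the ligands were lower. FPKM divides reads by the length of all annotated exons (9030 bases for Kdr and 13504 for Flt1). Levels of different genes therefore also depend on the annotated length. Mean FPKM of Kdr lay above that of 96.5% to 98.5% of the tested genes in the 6 groups, Flt1 above 92.4% to 97.4%, Nrp1 above 90.0% to 96.2% and Nrp2 above 86.8% to 91.5%. Vegfa lay above 36.5% to 77.3% of the tested genes and Vegfc above 44.1% to 88.3%, the last in normal PBS ECs, where Nrp2 lay above 90.7%. Vegfc had the widest range of group means, 5.55-fold between 3.83 FPKM in MMTV-PyMT PBS and 21.3 FPKM in normal PBS. The fold between the highest and the lowest group mean was 5.0 for Vegfa, 3.47 for Flt1, 2.04 for Nrp1, 1.95 for Kdr and 1.88 for Nrp2. The table counts reads per gene, so soluble and membrane forms of Flt1 or the neuropilins and the splice forms of Vegfa were not separated. Nrp2 overlaps the antisense gene Gm29083 and the gene Gm37121, and Nrp1 contains Mir1903 on its strand. In the GENCODE M21 annotation (GRCm38) Kdr lies at chr5:75932827-75978458, Flt1 at chr5:147561604-147726011 and Vegfa at chr17:46016993-46032369, all on the minus strand, and Nrp1 at chr8:128358604-128503363, Nrp2 at chr1:62703285-62818695 and Vegfc at chr8:54077606-54187096 on the plus strand, and values cover the exons of each. Whether counting used the strand was not stated, so reads of Nrp2 and its antisense gene may not have been told apart.

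**Figure D1:**
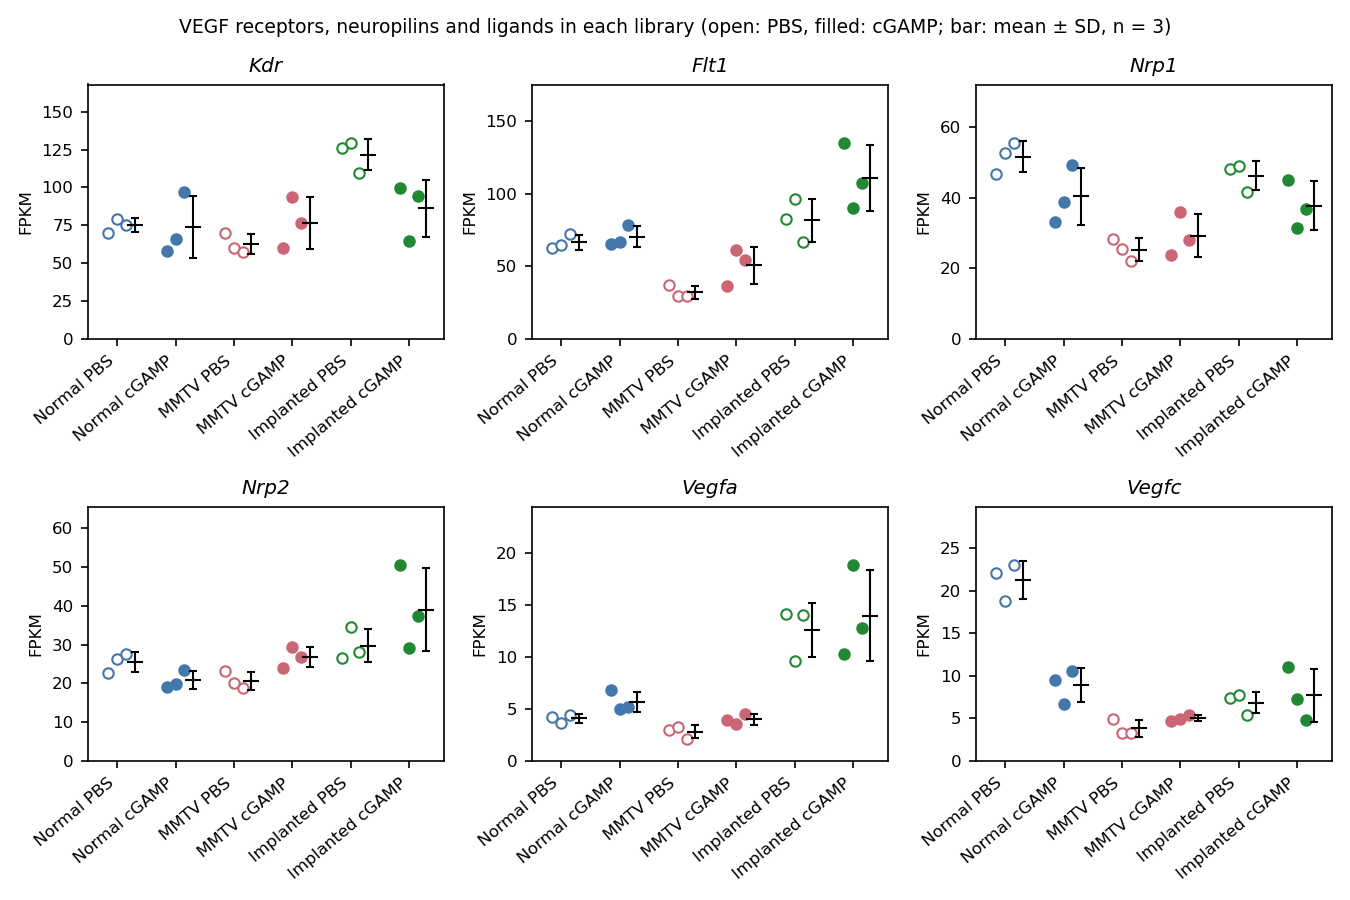
FPKM of each gene (linear axis from 0) in each of the 18 libraries, by tissue and treatment, with open points for PBS, filled points for cGAMP and bars for the mean ± SD of 3 libraries. Vegfc stands out in normal PBS (18.8 to 23.0 FPKM) and Vegfa in both implanted groups (9.65 to 18.8 FPKM), while Flt1 is lowest in MMTV-PyMT PBS (29.3 to 37.1 FPKM).

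The comparison in which most of the 6 genes passed was that of the 2 tumour models without agonist. All 6 were higher in implanted than in MMTV-PyMT ECs under PBS, by 1.44-fold for Nrp2 up to 4.50-fold for Vegfa in mean FPKM, and the libraries of the 2 groups did not overlap for any of the 6, as for 58.4% of all tested genes. In this comparison 45.5% of all tested genes passed the test, 20.8% as higher. A gene passed where its adjusted p was under 0.05 (limma on log2(FPKM + 1), Benjamini-Hochberg adjustment over 13983 genes). The median log2 difference of the 6 genes was 0.90 against -0.01 over all tested genes. EC markers moved the same way, with 7 of 10 higher and 1 lower and summed levels of 1331 to 1701 FPKM in implanted PBS and 875 to 1066 FPKM in MMTV-PyMT PBS, while 5 of 7 epithelial markers were lower. Libraries scaled by the summed EC markers, an alternative chosen after the values were seen, left 2 of the 6 past the test (Flt1 and Vegfa), as described with the plot of both scalings.

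MMTV-PyMT ECs had less of 3 members than normal ECs under PBS, namely Flt1, Nrp1 and Vegfc, and none higher. Background was 56.5% of all tested genes passing, 26.6% as lower. Library values did not overlap for 5 of the 6 genes, all but Nrp2, with MMTV-PyMT below normal in each, where 67.7% of all tested genes did not overlap. The median log2 difference of the 6 was -0.72, against 0.02 over all tested genes. Beside it, 7 of 10 EC markers and 7 of 8 mural cell markers were lower and 5 of 7 epithelial markers were higher, and the part of cell makeup in the members' values was not tested.

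Implanted ECs under PBS had more Kdr and Vegfa and less Vegfc than normal ECs, 3 of 6 genes where 48.7% of all tested genes passed (25% as higher and 23.6% as lower). Those 3 were also the genes whose libraries did not overlap, against 61.5% of all tested genes. Of the EC markers, 4 of 10 were higher and 3 lower here, with overlapping sums (1331 to 1701 against 1331 to 1510 FPKM).

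cGAMP moved 1 of the 6 genes in each tissue, and a different one each time. It lowered Vegfc in normal ECs, where 31.9% of all tested genes passed (18.2% as lower). Flt1 rose in MMTV-PyMT ECs, where 12% passed (7.42% as higher), and Kdr fell in implanted ECs, where 39.1% passed (18.8% as lower). The groups did not overlap for 2 genes in normal ECs (Vegfa and Vegfc), for 2 in MMTV-PyMT ECs (Nrp2 and Vegfa, neither of which passed) and for 1 in implanted ECs (Kdr). Of all tested genes 48.9%, 33.4% and 45.3% did not overlap in these comparisons. A gene that passed in 1 tissue only is not shown to differ between tissues, and the effect of cGAMP was therefore compared between tissues as well. That difference passed for Vegfc alone, between MMTV-PyMT and normal ECs (8.37% of all tested genes passed, 5.48% as higher) and between implanted and normal ECs (18.6%, 12.5% as higher). Between implanted and MMTV-PyMT ECs 0 of 6 passed (11.1% of all tested genes did) by limma, and Kdr was the only one of the 6 with an unadjusted p under 0.05. Its difference was -0.79 (adjusted p = 0.0749, limma), and it passed after quantile normalization (-1.14), with scaling by total reads (-0.97) and by summed EC markers (-0.76). Comparisons that use the same PBS or normal libraries share them and are not independent.

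**Figure D2:**
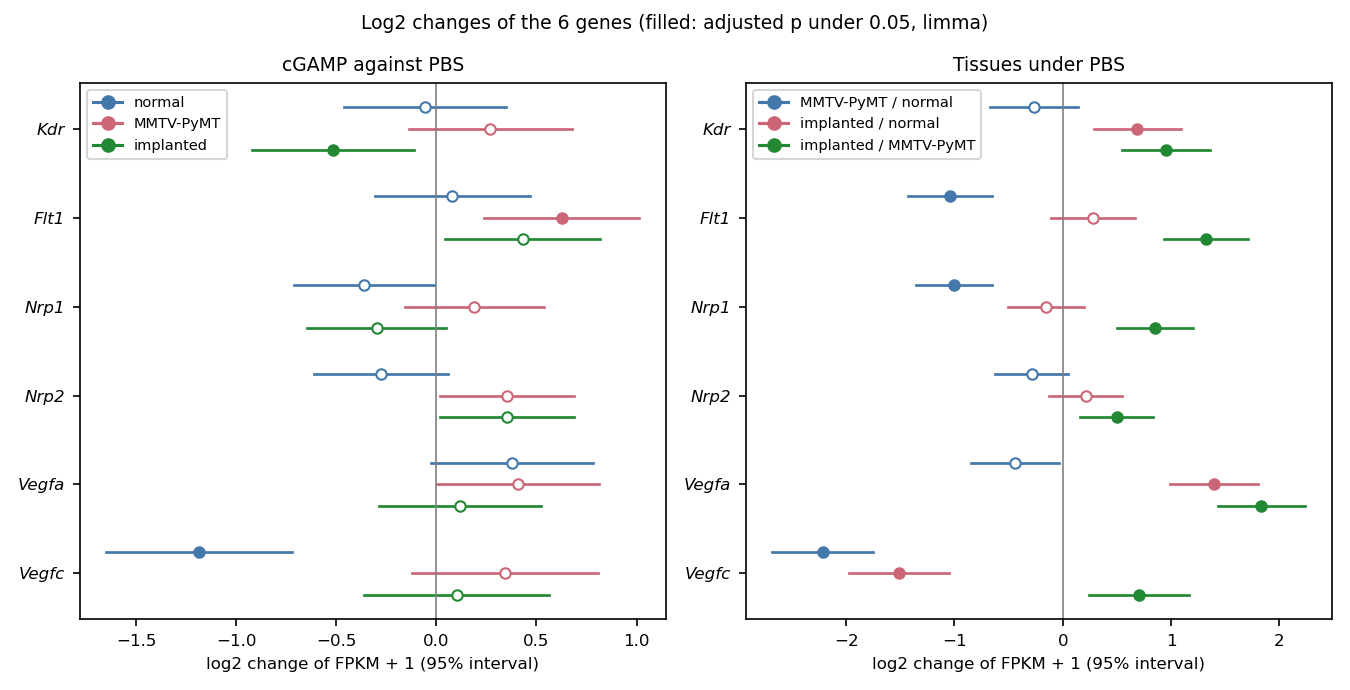
Log2 change of FPKM + 1 (x axis, with its 95% interval) for each gene, on the left for cGAMP against PBS in each tissue and on the right for the tissues under PBS. Filled points passed the test, and the right panel shows all 6 genes to the right of 0 for implanted against MMTV-PyMT ECs, from 0.50 (Nrp2) to 1.84 (Vegfa).

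Kdr, the main signalling receptor, was highest in implanted ECs that received PBS, with 126, 129 and 109.7 FPKM. Normal PBS libraries held 70.2, 79.4 and 75.4 FPKM and MMTV-PyMT PBS libraries 69.9, 60.2 and 57.3 FPKM. Every implanted PBS library was thus above every other PBS library, and the highest MMTV-PyMT library was just below the lowest normal one. The log2 difference of implanted PBS was 0.69 ± 0.19 (SE) from normal ECs (adjusted p = 0.00691, limma with Benjamini-Hochberg adjustment) and 0.95 ± 0.19 from MMTV-PyMT ECs (adjusted p = 0.000832, limma). MMTV-PyMT and normal ECs differed by -0.26, with a 95% interval from -0.67 to 0.14, which did not pass.

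After cGAMP, Kdr in implanted ECs was 99.3, 64.9 and 94.1 FPKM, so that all 3 libraries lay below all 3 PBS libraries. Mean FPKM fell from 122 ± 10.5 (SD, n = 3) to 86.1 ± 18.6 (SD, n = 3). The log2 change was -0.52 ± 0.19 (SE) with an adjusted p of 0.0423 (limma). Without the libraries implanted PBS 1, implanted PBS 2 or implanted cGAMP 2 the change was -0.49, -0.47 and -0.33 and no longer passed (adjusted p = 0.105, 0.111 and 0.188, limma), nor did it pass without any of the 3 normal PBS libraries, MMTV-PyMT PBS 2 or MMTV-PyMT cGAMP 3, which enter the shared spread only (adjusted p from 0.0506 to 0.0518, limma). With only the 2 groups compared in the fit it did not pass (adjusted p = 0.0623, limma), nor with the replicate number as a block (adjusted p = 0.0578, limma). Quantile normalization gave -0.98, scaling by total reads -0.83 and scaling by summed EC markers -0.73, all of which passed. The library implanted cGAMP 2 had the lowest Kdr of its group and, at 329 FPKM, the highest summed leukocyte markers of the series. Its summed EC markers were the lowest of its group (1374 FPKM, against 2253 and 1656), and its fibroblast sum was the highest of the series (609 FPKM). Of the 6 fibroblast markers, 5 were higher in implanted cGAMP ECs. Of 10 EC markers 0 passed in this comparison by limma (1 at an unadjusted p under 0.05). Whether EC content or other cells had a part in the Kdr value was not tested.

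In normal ECs Kdr was 58.2, 65.8 and 97.1 FPKM after cGAMP, and these values spanned the PBS range. MMTV-PyMT ECs had 59.7, 93.6 and 76.2 FPKM after cGAMP, also overlapping with PBS. The log2 changes were -0.06 (95% interval -0.46 to 0.35) and 0.27 (-0.13 to 0.68). In the order of group means, implanted PBS stood above the next group (implanted cGAMP) with no shared values, and each further neighbour (MMTV-PyMT cGAMP, normal PBS, normal cGAMP and MMTV-PyMT PBS) overlapped with the one before it.

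Flt1, the receptor that binds VEGF-A without strong signalling, was lowest in MMTV-PyMT ECs. PBS libraries held 37.1, 29.3 and 29.3 FPKM there, 62.5, 64.6 and 72.1 FPKM in normal ECs and 82.6, 96.0 and 66.4 FPKM in implanted ECs. No MMTV-PyMT value reached the other tissues, whereas normal and implanted values overlapped. Log2 differences were -1.04 ± 0.18 (SE) for MMTV-PyMT against normal ECs (adjusted p = 0.000169, limma) and 1.32 ± 0.18 for implanted against MMTV-PyMT ECs (adjusted p = 3.54e-05, limma). Implanted and normal ECs differed by 0.28 (95% interval -0.11 to 0.67).

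cGAMP raised Flt1 in MMTV-PyMT ECs, to 36.5, 61.2 and 54.3 FPKM. The lowest of these lay within the PBS range and the other 2 above it. Its log2 change of 0.63 ± 0.18 (SE) passed with an adjusted p of 0.0345 (limma). It did not pass without MMTV-PyMT PBS 2 (0.57, adjusted p = 0.116, limma), MMTV-PyMT PBS 3 (0.57, adjusted p = 0.130, limma), MMTV-PyMT cGAMP 2 (0.48, adjusted p = 0.183, limma) or MMTV-PyMT cGAMP 3 (0.56, adjusted p = 0.123, limma). With only the 2 groups compared in the fit it did not pass either (adjusted p = 0.0668, limma), nor with the replicate number as a block (adjusted p = 0.0571, limma). Scaling by summed EC markers gave 0.39, which passed. Of 10 EC markers 0 passed in this comparison by limma (3 at an unadjusted p under 0.05). Their sum was 951 to 1299 FPKM after cGAMP against 875 to 1066 FPKM under PBS. The part of EC content in the Flt1 change was not tested. MMTV-PyMT cGAMP 1, the library with the least Flt1, also had the least Kdr, Nrp1, Nrp2 and Vegfc of its group and the lowest summed EC markers (951 FPKM, against 1299 and 1163 in the other 2).

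Implanted ECs held 135, 90.3 and 107 FPKM of Flt1 after cGAMP, with 1 library below the highest PBS value. The change of 0.43 (95% interval 0.04 to 0.82) did not pass (adjusted p = 0.0727, limma), and under quantile normalization it was -0.022. It passed without MMTV-PyMT cGAMP 1, implanted PBS 2 or implanted cGAMP 2 (0.43, 0.55 and 0.57). In normal ECs the 65.5, 66.6 and 78.5 FPKM after cGAMP overlapped with PBS, a change of 0.08 (-0.31 to 0.47). By group means Flt1 ran from implanted cGAMP through implanted PBS, normal cGAMP and normal PBS, all overlapping with their neighbour, to MMTV-PyMT cGAMP and PBS, which lay below the normal groups without overlap and overlapped with each other.

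After cGAMP the mean FPKM of the 2 receptors changed in opposite directions in implanted ECs, where the change of Flt1 did not pass. Their ratio within a library needs no scaling between libraries. Flt1 over Kdr was 0.654, 0.742 and 0.605 in implanted PBS libraries and 1.36, 1.39 and 1.14 in implanted cGAMP libraries, without overlap. Which receptor is above the other depends on the exon lengths used, but the shift of the ratio does not. In MMTV-PyMT ECs the ratio ran from 0.487 to 0.531 under PBS and from 0.611 to 0.712 after cGAMP, again without overlap. Normal ECs had 0.814 to 0.955 under PBS and 0.809 to 1.13 after cGAMP, which overlapped. These ratios were chosen after the values were seen and are given with no test.

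**Figure D3:**
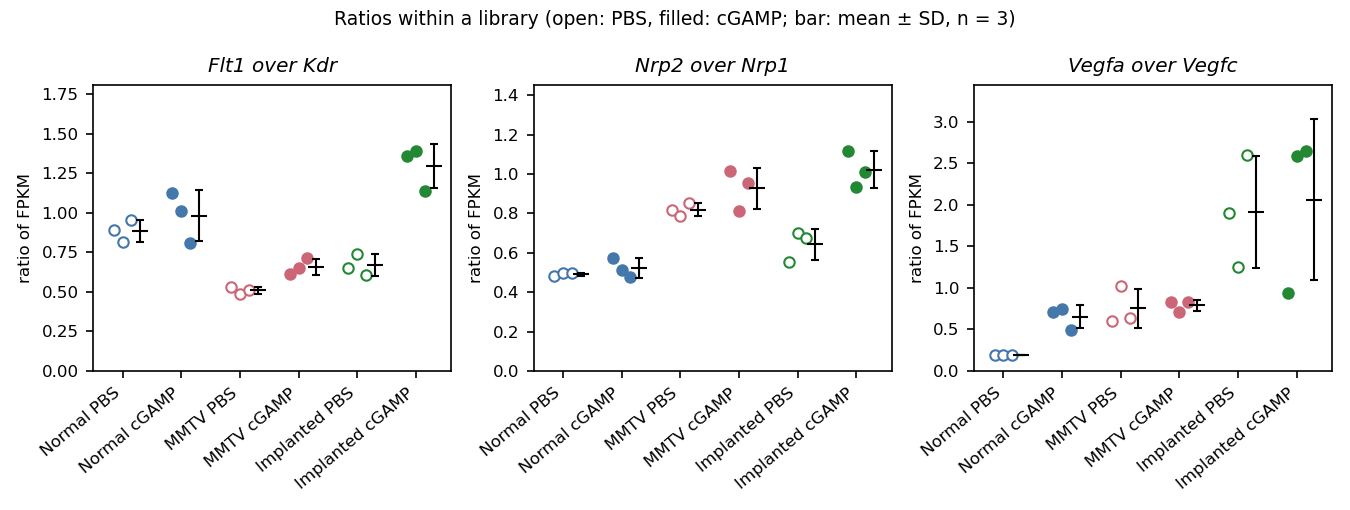
Ratios of FPKM within each library (linear axes from 0) for Flt1 over Kdr, Nrp2 over Nrp1 and Vegfa over Vegfc, with open points for PBS, filled points for cGAMP and bars for the mean ± SD of 3 libraries. In implanted ECs, Flt1 over Kdr lies between 0.605 and 0.742 under PBS and between 1.14 and 1.39 after cGAMP.

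Nrp1, the co-receptor that enhances VEGFR2 signalling and also binds semaphorin 3A, was 46.8, 52.8 and 55.5 FPKM in normal PBS ECs, 28.4, 25.6 and 22.0 FPKM in MMTV-PyMT PBS ECs and 48.3, 49.1 and 41.6 FPKM in implanted PBS ECs. MMTV-PyMT libraries lay below all others, and normal and implanted libraries overlapped. The log2 difference was -1.01 ± 0.16 (SE) for MMTV-PyMT against normal ECs (adjusted p = 8.89e-05, limma) and 0.85 ± 0.16 for implanted against MMTV-PyMT ECs (adjusted p = 0.000636, limma). Against normal ECs, implanted ECs differed by -0.16 (95% interval -0.51 to 0.19). cGAMP gave 45.0, 31.3 and 36.9 FPKM in implanted ECs, 23.7, 36.0 and 28.1 FPKM in MMTV-PyMT ECs and 33.2, 38.9 and 49.2 FPKM in normal ECs. Each of these overlapped with its PBS group. The log2 changes of -0.30, 0.19 and -0.36 did not pass (adjusted p = 0.164, 0.494 and 0.104, limma). In implanted ECs the change passed with quantile normalization (-0.62), total reads (-0.61) and EC-marker scaling (-0.51). In normal ECs it passed with quantile normalization (-0.43) and without normal cGAMP 3 (-0.51). Every neighbour in the order of the 6 group means, from normal PBS down to MMTV-PyMT PBS, overlapped with the next.

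Nrp2, the neuropilin linked to VEGF-C and to semaphorin 3F, had the smallest fold between group means of the 6 genes (1.88), with libraries from 18.7 to 50.4 FPKM. Normal PBS libraries held 22.6, 26.3 and 27.5 FPKM, MMTV-PyMT PBS libraries 23.2, 20.2 and 18.7 FPKM and implanted PBS libraries 26.7, 34.5 and 28.1 FPKM. Only the 2 tumour models did not overlap. Their log2 difference was 0.50 ± 0.16 (SE, adjusted p = 0.0174, limma), and it did not pass without MMTV-PyMT PBS 3 (0.43, adjusted p = 0.0709, limma) or implanted PBS 2 (0.39, adjusted p = 0.0877, limma). After scaling by total reads it was 0.35, and after scaling by summed EC markers -0.11, neither of which passed. After cGAMP, Nrp2 was 50.4, 29.2 and 37.4 FPKM in implanted ECs, 24.1, 29.3 and 26.8 FPKM in MMTV-PyMT ECs and 19.1, 19.9 and 23.5 FPKM in normal ECs. The MMTV-PyMT cGAMP libraries lay above all 3 PBS libraries and the other tissues overlapped. Log2 changes were 0.35, 0.35 and -0.28 (adjusted p = 0.0888, 0.166 and 0.196, limma), none of which passed. That in implanted ECs was 0.54 without implanted cGAMP 2 and then passed. All neighbours in the order of group means, from implanted cGAMP (39.0 ± 10.7 FPKM, SD, n = 3) down to MMTV-PyMT PBS (20.7 ± 2.31 FPKM, SD, n = 3), overlapped.

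The balance of the neuropilins differed between the tissues. Nrp2 over Nrp1 was 0.553 to 0.702 in implanted PBS, 0.789 to 0.852 in MMTV-PyMT PBS and 0.482 to 0.497 in normal PBS libraries. After cGAMP it was 0.933 to 1.12 in implanted ECs, 0.813 to 1.01 in MMTV-PyMT ECs and 0.477 to 0.576 in normal ECs. Implanted ECs alone had treatment groups that did not overlap, and like the receptor ratio this is a description with no test.

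Vegfa, which is made by many cell types in answer to low oxygen, was low in normal ECs (4.27, 3.64 and 4.46 FPKM under PBS) and in MMTV-PyMT ECs (2.99, 3.32 and 2.09 FPKM). Implanted PBS libraries held 14.1, 9.65 and 14.1 FPKM. All implanted values were above all others, and all MMTV-PyMT values were below all normal ones. Log2 differences of implanted ECs were 1.39 ± 0.19 (SE) from normal ECs (adjusted p = 1.9e-05, limma) and 1.84 ± 0.19 from MMTV-PyMT ECs (adjusted p = 2.53e-06, limma). MMTV-PyMT against normal ECs gave -0.44 (95% interval -0.85 to -0.04), which did not pass (adjusted p = 0.0595, limma).

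With cGAMP, Vegfa was 6.80, 5.02 and 5.22 FPKM in normal ECs and 3.92, 3.55 and 4.56 FPKM in MMTV-PyMT ECs, above all PBS libraries in both tissues. Implanted ECs had 10.3, 18.8 and 12.8 FPKM, which overlapped with PBS. The highest of these was implanted cGAMP 2, the library with the lowest Kdr, Flt1, Nrp1 and Nrp2 of its group. Log2 changes of 0.38, 0.41 and 0.12 did not pass (adjusted p = 0.146, 0.186 and 0.650, limma). In the order of group means, both implanted groups lay above normal cGAMP, normal cGAMP above normal PBS, and MMTV-PyMT cGAMP above MMTV-PyMT PBS without overlap, while the 2 implanted groups overlapped with each other and normal PBS with MMTV-PyMT cGAMP. Epithelial and fibroblast cells can also make Vegfa. Summed epithelial markers were highest in MMTV-PyMT ECs, where Vegfa was lowest. The fibroblast sum was highest in implanted ECs through the collagen genes Col1a1 and Col1a2, whereas Pdgfra, Dcn, Lum and Fbln1 had lower means there than in MMTV-PyMT ECs under PBS (1 of the 6 markers passed as higher and 2 as lower). The part of these cells in the Vegfa level was not tested.

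Vegfc, the lymphatic growth factor, was highest in normal ECs. Under PBS these held 22.1, 18.8 and 23.0 FPKM, MMTV-PyMT ECs 4.95, 3.24 and 3.31 FPKM and implanted ECs 7.43, 7.70 and 5.41 FPKM. The 3 tissues did not overlap. Mean FPKM was 5.55-fold lower in MMTV-PyMT ECs than in normal ECs and 3.11-fold lower in implanted ECs. Log2 differences from normal ECs were -2.22 ± 0.22 (SE, adjusted p = 5.58e-07, limma) and -1.51 ± 0.22 (SE, adjusted p = 3.17e-05, limma). Implanted ECs were above MMTV-PyMT ECs by 0.70 ± 0.22 (SE, adjusted p = 0.0153, limma), a difference that did not pass without MMTV-PyMT PBS 2, MMTV-PyMT PBS 3 or implanted PBS 2 (0.62, 0.63 and 0.62). All 4 lymphatic EC markers in the table, of 6 listed, were lower in each tumour model than in normal ECs, with sums of 9.32 to 16.0 FPKM in MMTV-PyMT, 15.4 to 25.4 FPKM in implanted and 55.3 to 65.7 FPKM in normal PBS libraries, and 7 of 8 mural cell markers were lower too. Their part in the tissue difference was not tested.

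cGAMP lowered Vegfc in normal ECs within 3 hours, to 9.52, 6.68 and 10.5 FPKM, less than any PBS library. The mean was 2.39-fold lower, at 8.91 ± 1.99 (SD, n = 3) against 21.3 ± 2.23 (SD, n = 3). On the log2 scale the change was -1.19 ± 0.22 (SE, adjusted p = 0.000735, limma), and it passed in each of 27 alternative analyses, between -1.31 and -1.01. Of the lymphatic EC markers 0 of 4 passed in this comparison by limma (0 at an unadjusted p under 0.05) and their sum was 50.8 to 72.6 FPKM after cGAMP against 55.3 to 65.7 FPKM under PBS. Of the mural cell markers, 1 of 8 was lower, with a sum of 833 to 1060 FPKM against 1026 to 1148 FPKM, and 2 of 10 EC markers were lower.

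In tumour ECs, cGAMP left Vegfc at 4.75, 4.98 and 5.46 FPKM (MMTV-PyMT) and 11.0, 7.28 and 4.84 FPKM (implanted), each overlapping with PBS. Log2 changes were 0.34 (95% interval -0.12 to 0.81) and 0.10 (-0.36 to 0.56). The effect of cGAMP in normal ECs differed from that in MMTV-PyMT ECs by 1.53 ± 0.31 (SE, adjusted p = 0.00804, limma) and from that in implanted ECs by 1.29 ± 0.31 (SE, adjusted p = 0.00819, limma), on the log2 scale and with the more negative effect in normal ECs. In the order of group means normal PBS stood alone, and the 5 other groups from normal cGAMP to MMTV-PyMT PBS each overlapped with the next. The ratio of Vegfa over Vegfc was 0.193 to 0.194 in the 3 normal PBS libraries and 0.496 to 0.752 after cGAMP, while in implanted ECs it was 1.25 to 2.60 under PBS and 0.940 to 2.65 after cGAMP.

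Summed EC markers differed between tissues, so all 6 genes were also compared after each library was scaled by that sum. The markers did not shift evenly. Of 10, 7 were lower and 0 higher in MMTV-PyMT than in normal ECs by limma. Mean Vwf was 138 FPKM in normal PBS and 29.0 FPKM in MMTV-PyMT PBS, but Cdh5 was 291 FPKM in both. EC content and marker level per cell cannot be told apart in the sum. This alternative was chosen after the values were seen, and it shifted the median of all tested genes to 0.48 for MMTV-PyMT against normal ECs and to -0.51 for implanted against MMTV-PyMT ECs. Between implanted and MMTV-PyMT ECs, Vegfa (1.33) and Flt1 (0.70) still passed, whereas Kdr (0.32), Nrp1 (0.23) and Vegfc (0.18) did not. Nrp2 changed sign (-0.11). For MMTV-PyMT against normal ECs, Vegfc (-1.72), Flt1 (-0.46) and Nrp1 (-0.43) still passed as lower, and Nrp2 passed as higher (0.29, against -0.29 as deposited). Kdr (0.32) and Vegfa (0.014) changed sign without passing. Implanted against normal ECs was little altered, with Kdr at 0.65, Vegfa at 1.34 and Vegfc at -1.54.

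**Figure D4:**
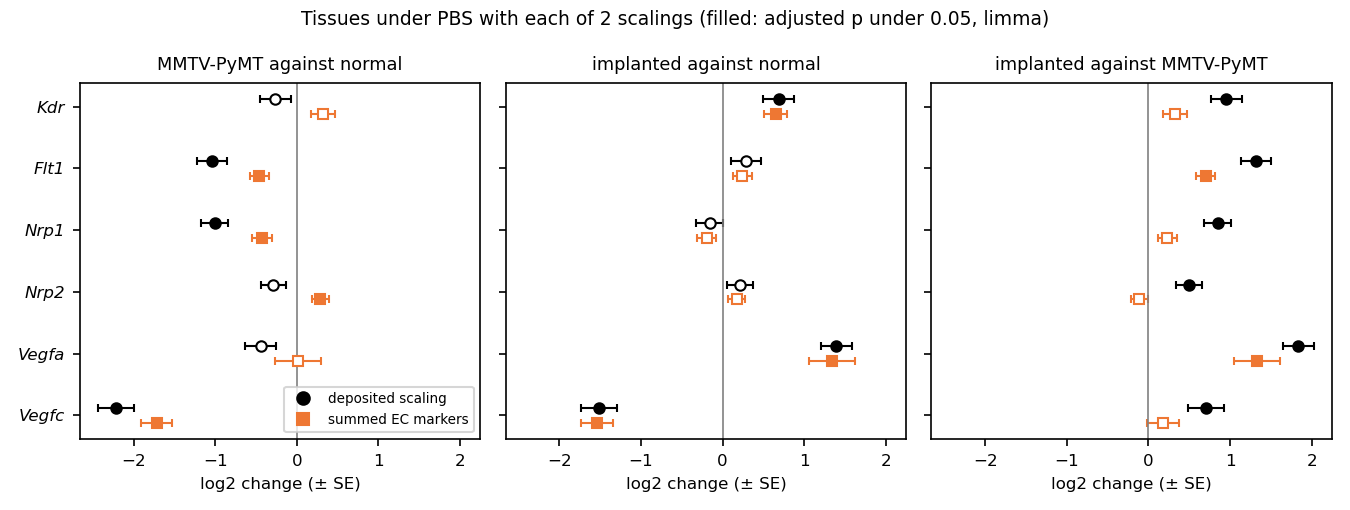
Log2 change (x axis, ± SE) of each gene between tissues under PBS, with the deposited scaling (circles) and after scaling by the summed EC markers (squares), where filled symbols passed the test. In implanted against MMTV-PyMT ECs all 6 circles are filled, and of the squares those of Flt1 (0.70) and Vegfa (1.33).

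Genes with the most similar profile over the 18 libraries were sought among 6909 genes with a mean FPKM of at least 5, by the Pearson correlation of log2(FPKM + 1), as a description, since the libraries form 6 groups and share their scaling. Flt1 was closest to Plvap (r = 0.97), which encodes a component of endothelial diaphragms, then Synpo (0.97) and Slc44a2 (0.96). Kdr was closest to Afap1l1 (0.90), Sh3tc1 (0.88) and Adarb1 (0.88). Nrp1 followed Stard8 (0.95), Ramp2 (0.95), part of the adrenomedullin receptor, and Ldb2 (0.95). Nrp2 followed Tie1 (0.96), a receptor of the angiopoietin system, Scarf1 (0.95) and Adam10 (0.95). For Vegfa the nearest were B2m (0.96), H2-Q7 (0.96) and H2-K1 (0.96), which encode parts of MHC class I, where H2 genes have near-identical relatives and uncertain counts. Vegfc was nearest to Ptpn14 (0.96), a phosphatase known from lymphatic development, Abr (0.95) and Kctd10 (0.94).

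Of the VEGF ligands and receptors beyond the 6, Vegfb, Pgf and Flt4 were in the table. Values of these and of the lists below are with the deposited scaling, and the part of cell makeup in them was not tested. Flt4, the receptor of VEGF-C, was 44.4 ± 6.65 FPKM (SD, n = 3) in implanted PBS, 18.5 ± 1.18 in normal PBS and 15.3 ± 2.50 in MMTV-PyMT PBS ECs. It was higher in implanted ECs by 1.21 against normal and by 1.48 against MMTV-PyMT ECs on the log2 scale (adjusted p = 2.26e-05 and 6.09e-06, limma), the opposite direction to its ligand Vegfc in the first of these. Pgf, a ligand of VEGFR1, was higher in implanted ECs too (1.12 and 0.93). cGAMP raised Flt4 in MMTV-PyMT ECs (0.54, adjusted p = 0.0465, limma) and Pgf in implanted ECs (0.66, adjusted p = 0.0187, limma). Vegfb fell in normal ECs (-0.46, adjusted p = 0.0298, limma).

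Genes known to be induced by VEGF in ECs split into several that were far higher in implanted ECs and others that were lower. Of 16, 7 were higher and 5 lower in implanted than in MMTV-PyMT ECs under PBS, with a list median of 0.36, where 45.5% of all tested genes passed. Esm1, a secreted marker of sprouting tips, was 129 ± 19.3 FPKM (SD, n = 3) against 7.02 ± 1.90 (log2 difference 4.04), and Angpt2 (2.66) and Apln (2.46), an angiopoietin and the apelin ligand, were also higher. Lower were Nr4a1 (-1.35), Egr1 (-0.65) and Nr4a2 (-0.62), which encode early response transcription factors. Against normal ECs 8 of 16 were higher and 6 lower, led by Esm1 (3.44), Apln (3.29) and the chemokine receptor gene Cxcr4 (2.64). MMTV-PyMT against normal ECs gave 3 higher and 5 lower of 16. All tested genes passed at 48.7% and 56.5% in these comparisons.

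After cGAMP the list moved in both directions. Plaur, the urokinase receptor gene, rose in each tissue (by 1.57 in implanted, 1.53 in MMTV-PyMT and 1.83 in normal ECs) and Nr4a1 fell in each (-0.39, -1.25 and -0.69). In implanted ECs 5 of 16 were higher and 3 lower, and Esm1 fell from 129 to 60.3 FPKM (-1.08, adjusted p = 0.00691, limma) and Apln from 98.7 to 51.4 FPKM (-0.94, adjusted p = 0.0489, limma). In normal ECs 6 were higher and 3 lower, among them F3 (1.44), Adamts1 (0.98) and Dll4 (-0.60), and in MMTV-PyMT ECs 3 were higher and 1 lower. These counts stand against 39.1% of all tested genes passing in implanted, 31.9% in normal and 12% in MMTV-PyMT ECs.

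**Figure D5:**
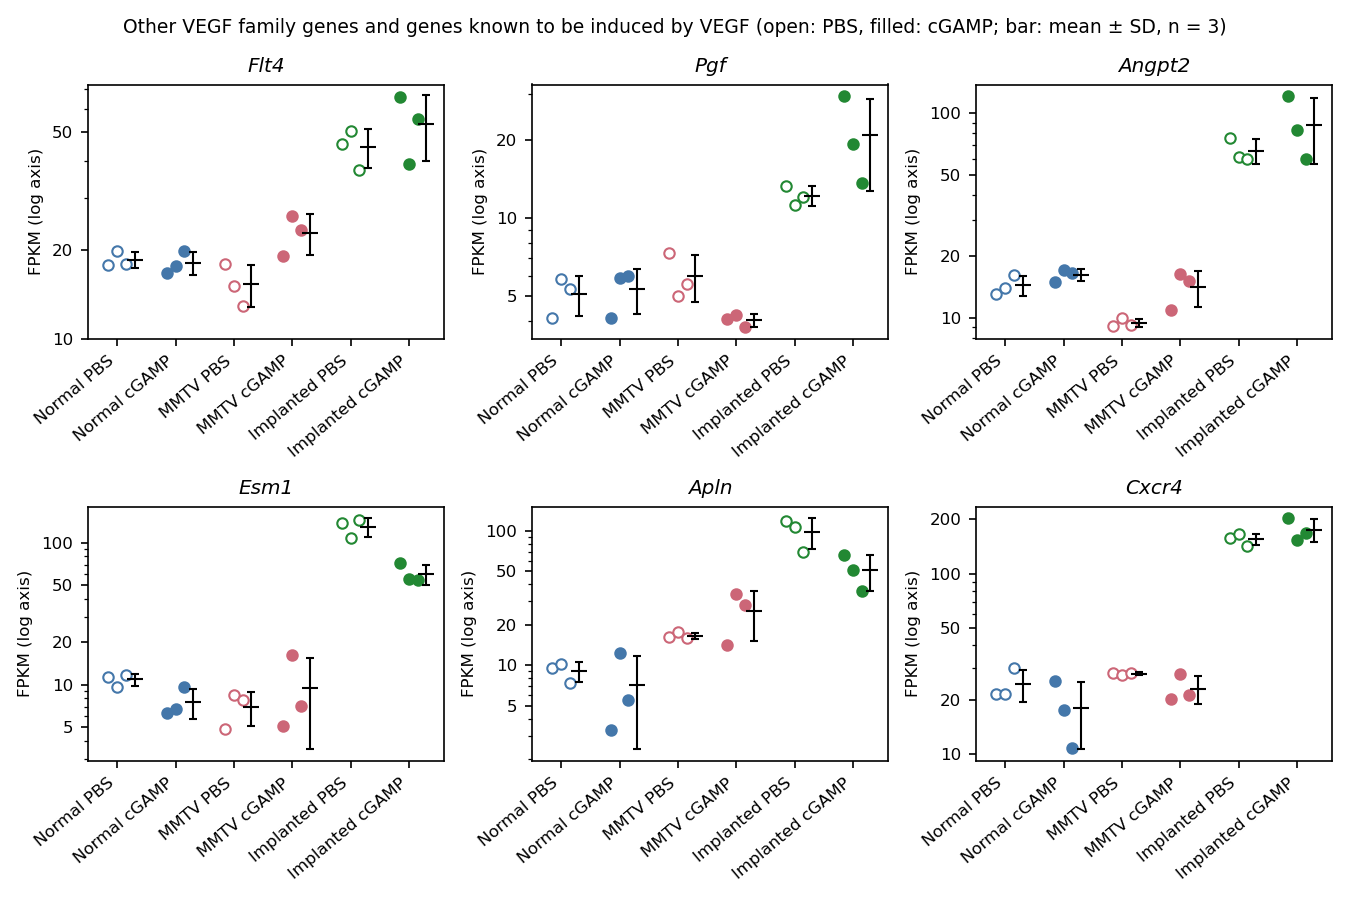
FPKM (log axes) of 2 further VEGF family genes and 4 genes known to be induced by VEGF in each library, with open points for PBS, filled points for cGAMP and bars for the mean ± SD of 3 libraries. Both implanted groups lie above the other groups for all 6 genes, and Esm1 is lower after cGAMP (54.3 to 71.5 FPKM) than under PBS (107 to 143 FPKM) in implanted ECs.

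Semaphorin and plexin partners of the neuropilins differed between the tissues in both directions. Of the 13 listed, 12 were tested, and 7 were higher and 1 lower in implanted than in MMTV-PyMT ECs under PBS, where 45.5% of all tested genes passed. Sema3f, a ligand of Nrp2, was 95.9 FPKM in implanted, 31.3 FPKM in normal and 23.2 FPKM in MMTV-PyMT ECs (log2 difference of the tumour models 2.0). Sema3g, another ligand of neuropilins, was 165 FPKM in normal ECs and lower in both tumour models, at 24.4 FPKM in implanted (-2.71) and 17.5 FPKM in MMTV-PyMT ECs (-3.20). cGAMP lowered Sema3g (-0.75) and Plxnd1 (-0.61) and raised Plxna2 (0.78) in normal ECs. In MMTV-PyMT ECs it raised Plxna2 (0.81) and Sema3f (0.75). Implanted ECs had 4 of 12 higher and 0 lower by limma, where 39.1% of all tested genes passed, led by Sema3a (1.34), a ligand of Nrp1.

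Among 11 partners and phosphatases of VEGFR2, Ptprb, which encodes the phosphatase VE-PTP, was lower in both tumour models than in normal ECs (-1.03 in implanted and -1.48 in MMTV-PyMT ECs). Itgb3, an integrin subunit that partners VEGFR2, was higher in both (2.58 and 1.03), and Efnb2, ephrin B2, was lower in MMTV-PyMT (-0.78) and higher in implanted ECs (0.83). The phosphatase gene Ptpn2 rose after cGAMP in implanted (1.27), MMTV-PyMT (0.81) and normal ECs (1.02), and Efnb2 fell in normal (-0.72) and implanted ECs (-0.56). Of 36 genes of VEGF signal transduction, cGAMP raised 15 and lowered 6 in implanted ECs, raised 4 and lowered 0 in MMTV-PyMT ECs, and raised 3 and lowered 8 in normal ECs. Background was 39.1%, 12% and 31.9% of all tested genes in that order. Nos3, endothelial nitric oxide synthase, was lower in MMTV-PyMT than in normal ECs (-1.16) and higher in implanted than in MMTV-PyMT ECs (1.37). Of 10 EC markers, 7 were lower in the first comparison, and 7 were higher and 1 lower in the second. The part of cell makeup in the Nos3 values was not tested.

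Many hypoxia response genes, of which Vegfa is a known example, were higher in implanted ECs. Of 16, 12 were higher and 1 lower than in normal ECs under PBS, and 9 were higher and 0 lower than in MMTV-PyMT ECs (list medians 1.0 and 0.77), against 48.7% and 45.5% of all tested genes passing. Egln3, an oxygen-sensing hydroxylase gene, was 49.4 FPKM in implanted, 16.3 FPKM in MMTV-PyMT and 3.90 FPKM in normal ECs. In MMTV-PyMT ECs 9 of 16 were higher and 4 lower than in normal ECs, where 56.5% of all tested genes passed. Among them were Ldha (1.72) and Epas1 (-1.86). Whether low oxygen or other cells had a part in the Vegfa level was not tested. Of 15 EC transcription factors, 9 were lower and 1 higher in MMTV-PyMT than in normal ECs, led by Klf2 (-2.52), Klf4 (-2.32) and the venous and lymphatic factor Nr2f2 (-1.93). There 26.6% of all tested genes and 7 of 10 EC markers passed as lower. In implanted against normal ECs 7 of 15 were lower and 4 higher, where 23.6% of all tested genes passed as lower and 25% as higher. Klf2 was 37.4, 46.4 and 48.1 FPKM in implanted PBS and 158, 130 and 187 FPKM in normal PBS libraries. In normal ECs, where 31.9% of all tested genes passed, cGAMP lowered 7 of 15 and raised 0 by limma, led by Sox18 (-1.06), Gata2 (-0.86) and Sox17 (-0.75).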

How the data were processed

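The authors sorted ECs, made directional libraries and, per the labels, checked reads with FastQC, aligned them to mm10 with STAR 2.7 and counted them with HTSeq, and deposited 1 table of FPKM values. How FPKM were made was not given in the sources used here. Columns that name only the treatment were taken as normal tissue, and columns without a sample numbered 0. No value was 0. With GENCODE M21 exon lengths, values of 98.5% of 16012 matched genes were whole reads in all libraries (within 0.02 read), and the scaling followed median-of-ratios size factors. Each of 18 pairs of replicates differed beyond sampling noise. Genes reaching an FPKM of 1 in 3 or more libraries were tested (13983, with 2265 left out), as log2(FPKM + 1), which understates changes of low genes. limma 3.58.1 (R 4.3.3, trend, 2-sided) fitted 1 mean per group over 18 libraries, with Benjamini-Hochberg adjustment over all tested genes in each of 9 comparisons. The fit was tested on simulated data. Alternatives were a pseudocount of 0.1, no filter, a mean FPKM of at least 5, quantile normalization, scaling by total reads, voom on recovered reads, a replicate block, only the groups compared, a log2 change of at least 1, each library left out and, chosen after seeing the data, scaling by summed EC markers. Genes named were the 6 members, the 3 tested genes most correlated with each, and per list and comparison at most 3 per direction that passed. The members and lists were chosen with earlier results of these data known. Coordinates count from 1. Intervals cover the spread between libraries, and read counts cover counting error only.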

Additional observations from a re-analysis of the deposited data

Results flagged for a closer look

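The effect of cGAMP on Vegfc differed between tissues by a test of the difference itself. It was higher by 1.53 ± 0.31 (SE, log2 scale) in MMTV-PyMT than in normal ECs (adjusted p = 0.00804, limma with Benjamini-Hochberg adjustment) and by 1.29 ± 0.31 in implanted than in normal ECs (adjusted p = 0.00819, limma). All 3 normal cGAMP libraries lay below all 3 normal PBS libraries, and the tumour groups overlapped with their PBS groups. Both differences share the 6 normal libraries and are not independent. With 3 libraries per group, no group was tested for a library far from the others.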

How the results depend on the processing

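Over 27 alternatives, 18 of which leave out 1 library each, the 54 values of the members gave 1458 results, of which 1352 kept direction and side of the threshold, 34 newly passed, 25 no longer passed and 47 changed sign. Of the 17 values that passed, 11 did so under each of these 27 alternatives. A limit of a log2 change of at least 1, applied to counts only, was reached by 10 of the 17. The cause of each change was not tested.

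Counts of the 6 genes that passed moved as follows, with the count as reported first. For cGAMP in normal ECs (1) it was 2 with quantile normalization, and 1 to 2 with 1 library left out (2 without normal cGAMP 3). For cGAMP in MMTV-PyMT ECs (1) it was 0 with the replicate block, with only the groups compared and with a log2 change of at least 1, and 0 to 1 with 1 library left out (libraries named with Flt1). In implanted ECs (1) it was 2 with quantile normalization, total reads and EC-marker scaling, 0 with the replicate block, with only the groups compared and with a log2 change of at least 1, and 0 to 2 with 1 library left out (2 without MMTV-PyMT cGAMP 1 or implanted cGAMP 2). For MMTV-PyMT against normal ECs (3) it was 6 with only the groups compared, and 4 with a pseudocount of 0.1, quantile normalization, EC-marker scaling and without MMTV-PyMT PBS 2, implanted PBS 2, implanted cGAMP 1 or implanted cGAMP 2. For implanted against normal ECs (3) it was 2 with a log2 change of at least 1. For implanted against MMTV-PyMT ECs (6) it was 2 with EC-marker scaling and 2 with a log2 change of at least 1, 5 with total reads, and 4 to 6 with 1 library left out (4 without MMTV-PyMT PBS 3 or implanted PBS 2, 5 without MMTV-PyMT PBS 2). For the difference in cGAMP effect, MMTV-PyMT minus normal (1), it was 2 with only the groups compared and 1 to 2 with 1 library left out (2 without MMTV-PyMT cGAMP 1, implanted cGAMP 1 or implanted cGAMP 2). For implanted minus normal (1) it was 2 with a mean FPKM of at least 5, quantile normalization, total reads and EC-marker scaling, and 1 to 2 with 1 library left out (2 without implanted PBS 2 or implanted cGAMP 2). For implanted minus MMTV-PyMT (0) it was 2 with quantile normalization, 1 with total reads, 1 with EC-marker scaling, and 0 to 1 with 1 library left out (1 without normal cGAMP 3 or MMTV-PyMT cGAMP 1).

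Values that changed sign, on the log2 scale, were mostly near 0. With EC-marker scaling they were 0.11 for Kdr, cGAMP in normal ECs, -0.043 for Nrp1, cGAMP in MMTV-PyMT ECs, -0.073 for Vegfa and -0.086 for Vegfc, cGAMP in implanted ECs, 0.32 for Kdr, 0.29 for Nrp2 and 0.014 for Vegfa in MMTV-PyMT against normal ECs, and -0.11 for Nrp2 in implanted against MMTV-PyMT ECs. In the differences of the cGAMP effect they were -0.080 for Kdr and -0.28 for Vegfa (MMTV-PyMT minus normal), and -0.031 for Flt1 and -0.31 for Nrp1 (implanted minus normal). Quantile normalization gave -0.0062 for Flt1 in normal ECs, -0.022 for Flt1 and -0.012 for Vegfa in implanted ECs, and in the differences -0.068 for Vegfa (MMTV-PyMT minus normal), -0.016 for Flt1 and -0.18 for Nrp1 (implanted minus normal) and -0.26 for Nrp2 (implanted minus MMTV-PyMT). Total reads gave -0.17 for Vegfa and -0.18 for Vegfc in implanted ECs, -0.074 for Vegfa (MMTV-PyMT minus normal), -0.24 for Nrp1 (implanted minus normal) and -0.18 for Nrp2 (implanted minus MMTV-PyMT), and shifted the median of all genes to -0.25 for cGAMP in implanted ECs, -0.15 for cGAMP in MMTV-PyMT ECs and -0.13 for implanted against either other tissue. EC-marker scaling shifted the medians of cGAMP to -0.23 in MMTV-PyMT and -0.17 in implanted ECs. For the Nrp2 difference (implanted minus MMTV-PyMT), a pseudocount of 0.1 gave -0.0044 and voom on recovered reads -0.0074. With 1 library left out, cGAMP changes ran from -0.27 to 0.093 for Kdr and from -0.0039 to 0.14 for Flt1 in normal ECs, and from -0.10 to 0.30 for Vegfa and -0.16 to 0.36 for Vegfc in implanted ECs. Differences of the cGAMP effect ran from -0.11 to 0.15 for Vegfa (MMTV-PyMT minus normal), from -0.068 to 0.21 for Nrp1 (implanted minus normal), and from -0.20 to 0.19 for Nrp2 and -0.50 to 0.015 for Vegfc (implanted minus MMTV-PyMT).

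Replicate numbers are shared between groups in the labels, which name no common batch. Deviations of same-numbered libraries correlated from -0.345 to 0.294, over 0.1 in 8 of 45 pairs, so the numbers were not taken to pair the libraries. With the replicate block, Flt1 in MMTV-PyMT ECs (adjusted p = 0.0571, limma) and Kdr in implanted ECs (adjusted p = 0.0578, limma) no longer passed, which moved both counts from 1 to 0, and no other call changed. Vegfa and Vegfc rest on the fewest reads (down to 114 and 86), so their values carry the largest counting error.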
